A study of Rattus norvegicus with 2 samples.

Results

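The Cyp2 family of cytochrome P450 enzymes was followed in rat liver 36 h after senecionine, a hepatotoxic pyrrolizidine alkaloid. Its members were taken from a list of 31 Cyp2 genes, and a probe belonged to a member when its RefSeq transcript accession mapped to that gene. Of the 31, 26 had at least 1 probe that could be named in this way (35 probes in all), out of 13667 named genes on the array. Cy3-labelled liver RNA of Sprague Dawley rats was hybridised to 2 arrays, 1 for rats dosed with senecionine through the stomach (35 mg/kg) and 1 for rats given sodium chloride. Per the series' design text, each group is a pool of tissue from 3 animals. The same text speaks of 2 independent experiments and names control and senecionine in brackets, which is read here as the 2 arrays and not as repeats of the treatment. The labels give neither sex nor age. With 1 array for each group there are no replicates, no test was possible and no p-value is given, so each difference described is one between 2 pooled RNA samples.

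Cytochromes P450 of family 2 are haem proteins of the endoplasmic reticulum. They take electrons from the reductase Por, some of them also from cytochrome b5, and oxidise drugs, steroids, fatty acids and plant toxins. In the rat, several are set by sex through the pattern of growth hormone secretion, others are induced through the xenobiotic receptors Nr1i3 (CAR) and Nr1i2 (PXR), and Cyp2e1 is densest in hepatocytes around the central vein. Pyrrolizidine alkaloids are themselves P450 substrates, and forms of the Cyp3a and Cyp2b subfamilies are known to oxidise them to reactive pyrroles.

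Signal is given as the processed spot intensity, and differences as the log2 ratio, senecionine minus control, after each array's 75th percentile of signal (134 intensity units for senecionine, 101 for control) was subtracted. The error beside a log2 ratio is the scanner's spot error, which is technical and covers neither animals nor labelling. A gene was measured when a probe with no outlier flag passed the scanner's test for being well above background on each array. The brightest such probe stood for it. By this rule 23 members were measured. Cyp2a3, a form known from lung and nasal mucosa, and Cyp2j10 were not well above background on either array, and the only spot of Cyp2d4 carried a non-uniformity flag on both. Cyp2c23, Cyp2c24, Cyp2c79, Cyp2d1 and Cyp2u1 had no probe that could be named.

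Most measured members were lower after senecionine. At 2-fold or more, 17 of the 23 were lower, 6 lay within 2-fold and none was at least 2-fold higher, and their median log2 ratio was -1.61. Over all 7803 measured genes, 17.7% were at least 2-fold lower, 11.2% were at least 2-fold higher, and the median was -0.14. Cyp2c22 passed the 2-fold mark upward under quantile normalization, cyclic loess, normexp background correction or no scaling, and Cyp2s1 did so without scaling. Of the 17 lower members, 12 stayed at least 2-fold lower under each of the 11 other ways of processing the signals, among them the authors' own values. The authors' list holds only probes that differ by at least 2-fold, so passing 2-fold there was fixed by that selection. Of the 12, all but Cyp2b2 and Cyp2c7 have a single probe. For those members the other probe rules and the looser filters on dim probes returned the reported value and could not move it. Keeping flagged spots moved only Cyp2e1 among the 12, from -2.18 to -2.16. For most of the 12, the settings able to change the outcome were therefore the scalings and the normexp correction.

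**Figure D1:**
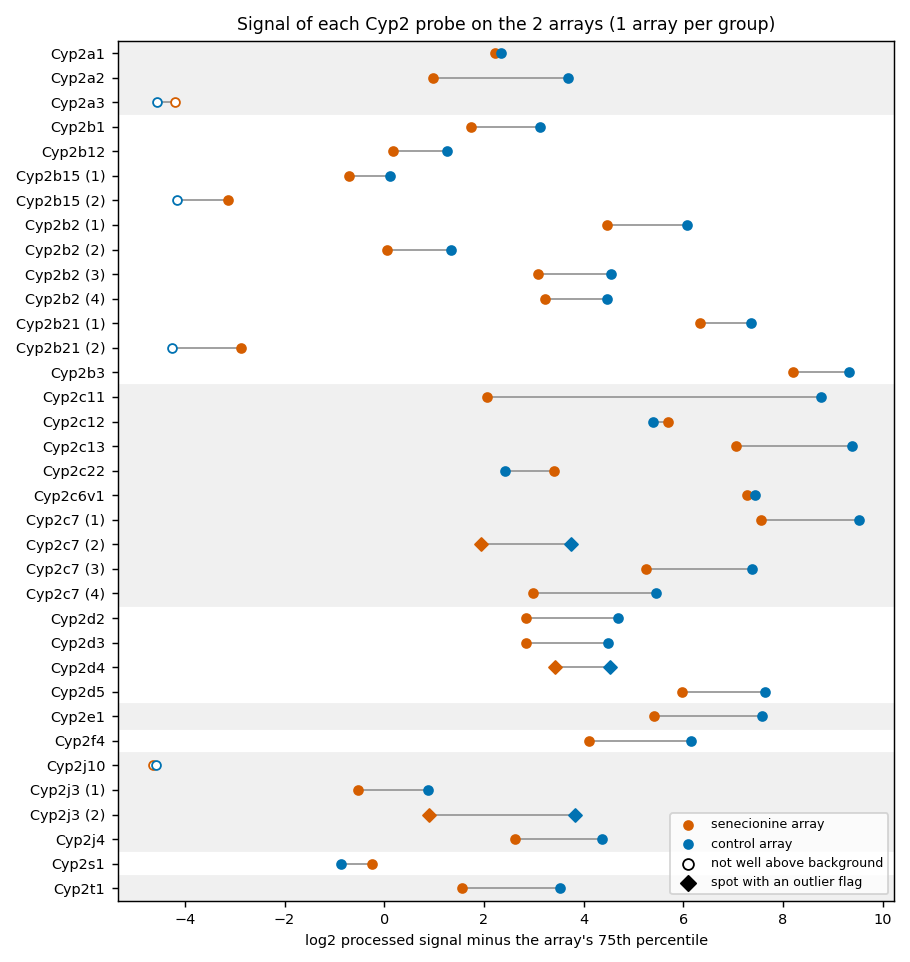
Signal of each of the 35 Cyp2 probes on the senecionine array (orange) and the control array (blue), as log2 processed signal minus the array's 75th percentile. Open circles were not well above background and diamonds are spots with an outlier flag. The longest line is that of Cyp2c11, and Cyp2c12, Cyp2c22 and Cyp2s1 are the members well above background on both arrays whose scaled senecionine signal is the higher.

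Hepatocyte markers were bright on both arrays, and markers of other cells were present. Of 8 hepatocyte markers, 4 were measured and the other 4 (Apoa1, Ttr, Tf and Ahsg) had flagged spots only. Albumin (Alb) had a signal of 55952 on the senecionine array and 92727 on the control array. At 2-fold or more, 3 of the 4 were lower (75%, beside 17.7% of all measured genes, median -1.07). The spot errors of Alb (log2 ratio -1.14 ± 0.20) and Tat (-1.01 ± 0.20) span the 2-fold mark. In this pooled tissue, fewer hepatocytes and less RNA per hepatocyte cannot be told apart. Of 7 neutrophil markers, 6 had named probes and 3 were measured, all of them at least 2-fold higher. The summed signal of the 6 was 10301 after senecionine and 396 in control. S100a8 (4559) and S100a9 (4412) made up most of the senecionine sum. Camp and Elane passed the background test with senecionine alone. Camp read 50.5 there and 4.36 in control, whereas Elane read 14.5 there and 17.9 in control. Ngp passed the test on neither array. The part of neutrophils in the Cyp2 differences was not tested. On the control array neuron and glia markers stood out as well: of 10, 6 were measured and all 6 were at least 2-fold lower after senecionine, with a summed signal of the 10 of 549 on the senecionine array and 8129 on the control array. Tubb3, at 5620, made up most of the control sum. Snap25 and Gap43 passed the background test in control alone. Syt1 and Gfap went the other way and passed it with senecionine alone. Syt1 read 12.9 there and 4.19 in control, and Gfap 13.4 there and 5.10 in control. The part of the RNA behind these markers in the Cyp2 differences was not tested. Markers of the other liver cells went in both directions, and their part was not tested either. Of 4 stellate cell markers, all measured, Dcn was 11.8-fold and Des 5.43-fold higher, Lrat was 5.02-fold lower, and Col1a1 lay within 2-fold (summed signal 6274 after senecionine and 5264 in control). Of 6 macrophage markers, the Kupffer cell receptor Clec4f was 8.98-fold lower (1352 after senecionine, 9156 in control) and Adgre1 2.43-fold lower, whereas Cd68 was 2.09-fold higher (7673 after senecionine, 2771 in control). Clec4f and Cd68 made up most of the summed macrophage signal of 9443 after senecionine and 12460.2 in control, and Cd163 passed the background test on neither array. Of 3 endothelial markers with a named probe, Kdr was 7.42-fold lower and Pecam1 passed the background test on neither array. Lyve1 lay within 2-fold on its brightest probe (log2 ratio -0.55), while its other probe gave -1.02. The summed signal of the 3 was 2238 after senecionine and 6465 in control. Both bile duct markers with a named probe, Epcam and Krt19, were at least 2-fold higher (summed signal 449.9 after senecionine and 74.7 in control).

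The Cyp2a subfamily split between its 2 measured forms, which hydroxylate testosterone. Cyp2a2, a male-specific form in adult rats, had a signal of 263 on the senecionine array and 1297 on the control array, which is 6.54-fold lower (log2 ratio -2.71 ± 0.20). Cyp2a1, its neighbour on chromosome 1 and a form more abundant in females, had signals of 626 after senecionine and 509.6 in control and, once scaled, a ratio of -0.11 ± 0.20 on the log2 scale, less than its spot error. The sign of the Cyp2a1 ratio turned with the scaling, between -0.28 and 0.30. Each of these adjacent genes rests on 1 probe.

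Cyp2b genes were lower by a small and even margin. This subfamily holds Cyp2b1 and Cyp2b2, the phenobarbital-inducible forms driven by CAR. All 6 measured members had ratios below 0, and 5 were at least 2-fold lower (median -1.11). Cyp2b2, with 4 probes, gave signals of 2967 after senecionine and 6825 in control on the brightest, and the log2 ratios of the 4 probes ran from -1.61 to -1.25, each past 2-fold. Cyp2b1 had signals of 444 after senecionine and 880.4 in control and was 2.63-fold lower. Cyp2b3, a liver form that phenobarbital does not induce, read 39476 on the senecionine array and 64643 on the control array (2.17-fold lower, log2 ratio -1.12 ± 0.20), and Cyp2b12, first known from skin, read 151 after senecionine and 243 in control (2.14-fold lower, log2 ratio -1.09 ± 0.21). Cyp2b21 read 10852 after senecionine and 16584 in control, a log2 ratio of -1.02 ± 0.20. Cyp2b15 lay within 2-fold, at signals of 81.3 after senecionine and 109 in control and a log2 ratio of -0.83 ± 0.22. The spot errors of Cyp2b3, Cyp2b12, Cyp2b21 and Cyp2b15 span the 2-fold mark, so of the 5 Cyp2b genes counted as lower, Cyp2b1 and Cyp2b2 are past it by more than their error.

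Of the 6, 3 were past 2-fold under quantile normalization, cyclic loess, normexp or in the authors' deposited table, and 1 without scaling, although all 6 stayed below 0 wherever a setting gave them a value. Cyp2b15 and Cyp2b21 each had a further, dim probe that passed the background test with senecionine alone. These read 15.1 (Cyp2b15) and 18.3 (Cyp2b21) after senecionine, against 5.67 (Cyp2b15) and 5.27 (Cyp2b21) in control. The dimmest probe to pass that test read 10.8 for senecionine and 20.6 for control, and neither dim probe gives a fold. Members of this subfamily are close in sequence, and a probe of one may bind transcripts of another.

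The likeness of Cyp2b1 and Cyp2b2 reaches into their promoters, shown here because both genes were lower and share most of their sequence. Over 250 bases before to 50 after the start site (RefSeq, GRCr8), 275 bases were identical in a global alignment, or 91.7% of the window length of 300. It was the closest of the 378 pairs among 28 members with a promoter entry. Bases left unpaired at the window ends lower this identity. Pairs of different subfamilies had a median of 58.3%, and those of 1 subfamily 62.3%. The Cyp2b1 window is chr1:90645869-90646168 and that of Cyp2b2 chr1:90722031-90722330, both on the plus strand. Capitals mark the motifs searched, placed by their first base from the start site. Of these, TTGCNNAA, a C/EBP-type site, is at -70 in Cyp2b1 and at -87 in Cyp2b2, read as TTGCATAA in both. Cyp2b1 also holds the FOXA motif TGTTTAC on the reverse strand at -250, and Cyp2b2 the site type of Dbp, TTANGTAA, on the reverse strand at -224. The windows do not begin at matching bases, which also sets the aligned TTGCATAA sites at -70 and -87 apart. That of Cyp2b2 begins past the bases that match the FOXA motif of Cyp2b1. Whether Cyp2b2 has this motif further upstream was therefore not seen.
Cyp2b1: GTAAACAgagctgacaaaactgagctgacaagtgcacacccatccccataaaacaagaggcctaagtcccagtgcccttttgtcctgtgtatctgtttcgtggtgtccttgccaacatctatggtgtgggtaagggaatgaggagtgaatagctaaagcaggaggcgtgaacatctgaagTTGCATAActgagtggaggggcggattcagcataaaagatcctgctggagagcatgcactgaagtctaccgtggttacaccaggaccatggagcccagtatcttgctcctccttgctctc
Cyp2b2: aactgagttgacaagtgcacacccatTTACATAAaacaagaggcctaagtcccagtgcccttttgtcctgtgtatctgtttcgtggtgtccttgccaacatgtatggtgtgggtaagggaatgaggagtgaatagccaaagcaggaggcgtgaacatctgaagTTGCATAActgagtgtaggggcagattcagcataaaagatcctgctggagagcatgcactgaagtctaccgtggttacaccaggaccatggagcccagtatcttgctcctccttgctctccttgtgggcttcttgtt

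TTGCNNAA occurred on either strand in 12 of the 28 member windows, including all 6 Cyp2b genes, and in 10.6% of all 33469 rat promoter windows of the same length. TATAAA was also in 12 of the 28, against 14.2% of all windows, and TTANGTAA in 1, against 2.24%. No 2 of the motifs searched overlapped in a member window. Both counts include near-copies of 1 ancestral promoter, so the windows are not independent. A match is a string of letters and was not tied to binding by any measurement here.

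**Figure D2:**
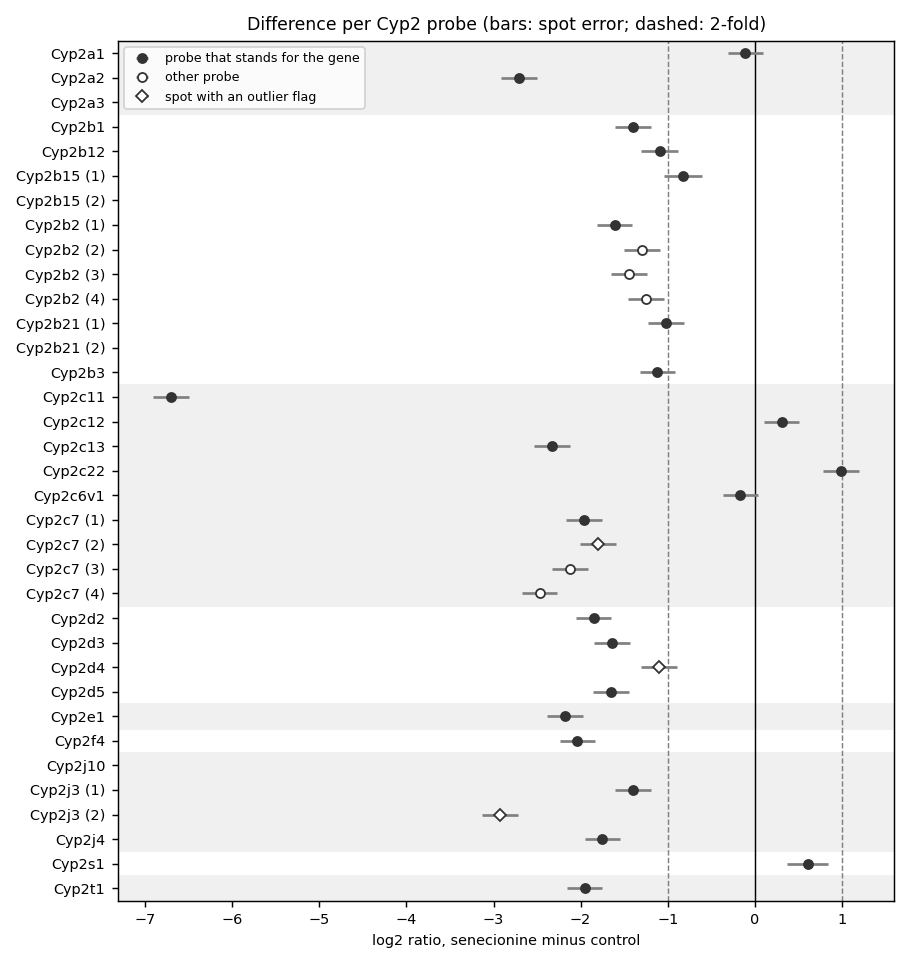
Log2 ratio (senecionine minus control) of each Cyp2 probe well above background on both arrays, with the spot error as a bar and dashed lines at 2-fold. Filled circles stand for the gene, open circles are its other probes and diamonds are spots with an outlier flag. The Cyp2b probes lie close together between -1.61 and -0.83, whereas the Cyp2c probes run from -6.70 to 0.99.

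The Cyp2c subfamily was the most divided. Of 6 measured members, 3 were at least 2-fold lower and 3 within 2-fold, across a span that took in the lowest and the highest ratio of all Cyp2 members. Cyp2c11, the male-specific testosterone hydroxylase and a major P450 of adult male rat liver, read 561 on the senecionine array and 44003 on the control array. It was 104-fold lower (log2 ratio -6.70 ± 0.20), and only 4 of the 7803 measured genes had a lower ratio. Cyp2c13, also male-specific, read 17805 after senecionine and 67413 in control and was 5.02-fold lower. Cyp2c7, a female-predominant form, had signals of 25396 after senecionine and 74491 in control on its brightest probe, 3.89-fold lower, and log2 ratios of -2.12 and -2.47 on the other 2 unflagged probes. The remaining Cyp2c7 probe, flagged on the control array, gave -1.80.

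The other Cyp2c genes did not share that direction beyond 2-fold. Cyp2c12, the female-specific steroid sulphate hydroxylase, read 6936 after senecionine and 4232 in control (log2 ratio 0.31 ± 0.20). Cyp2c22, a retinoic acid hydroxylase, read 1422 after senecionine and 539.6 in control and was 1.99-fold higher (0.99 ± 0.20), just inside 2-fold. Cyp2c6v1, a constitutive form that phenobarbital raises, read 20757 after senecionine and 17586 in control, with a log2 ratio of -0.17 ± 0.20. Its sign turned with the scaling, between -0.34 and 0.33, whereas Cyp2c12 and Cyp2c22 had ratios above 0 under every setting tried. Among the sex-biased forms, Cyp2c11, Cyp2c13 and Cyp2a2 (male) and Cyp2c7 (female) were at least 2-fold lower, and Cyp2c12 and Cyp2a1 (female) lay within 2-fold. The labels do not give the sex of either pool, so whether the pools differed in sex could not be checked.

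Cyp2c12, Cyp2c13 and Cyp2c22 lie side by side on chromosome 1 in the RefSeq gene table, with log2 ratios of 0.31, -2.33 and 0.99. The promoters of Cyp2c12 and Cyp2c13 are printed because the 2 genes are neighbours with alike windows (74.7% identity) and unlike ratios, and that of Cyp2c11 because it had the lowest ratio. Both Cyp2c12 (at -138) and Cyp2c13 (at -127) hold CAAAGTTCA, a site type of the nuclear receptor Hnf4a, which was in no other member window and in 0.32% of all windows. A second form of this motif, CAAAGTCCA, was in no member window and in 0.391% of all windows. Both hold the ONECUT motif ATCAAT on the reverse strand, at -71 and at -60, and Cyp2c12 a further one on the forward strand at -243, against 3 of 28 members and 8.06% of all windows. The FOXA motif TGTTTAC was in 4 of the 28 member windows and 3.78% of all, and in neither of these. Capitals mark these motifs together with TTGCNNAA and TATAAA, and the windows are chr1:246174966-246175265 (plus strand) for Cyp2c11, chr1:248676985-248677284 (minus strand) for Cyp2c12 and chr1:248787139-248787438 (minus strand) for Cyp2c13.
Cyp2c11: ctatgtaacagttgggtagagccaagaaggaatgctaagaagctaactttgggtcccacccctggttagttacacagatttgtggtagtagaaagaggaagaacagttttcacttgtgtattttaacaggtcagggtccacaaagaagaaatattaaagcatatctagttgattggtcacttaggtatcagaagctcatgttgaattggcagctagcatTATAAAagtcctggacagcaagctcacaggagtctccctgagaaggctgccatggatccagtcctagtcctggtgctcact
Cyp2c12: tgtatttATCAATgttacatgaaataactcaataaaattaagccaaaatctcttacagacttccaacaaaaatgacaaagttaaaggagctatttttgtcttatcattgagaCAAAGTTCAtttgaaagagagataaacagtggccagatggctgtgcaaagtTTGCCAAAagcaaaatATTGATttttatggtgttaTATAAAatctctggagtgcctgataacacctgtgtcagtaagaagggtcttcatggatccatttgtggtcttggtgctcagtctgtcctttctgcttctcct
Cyp2c13: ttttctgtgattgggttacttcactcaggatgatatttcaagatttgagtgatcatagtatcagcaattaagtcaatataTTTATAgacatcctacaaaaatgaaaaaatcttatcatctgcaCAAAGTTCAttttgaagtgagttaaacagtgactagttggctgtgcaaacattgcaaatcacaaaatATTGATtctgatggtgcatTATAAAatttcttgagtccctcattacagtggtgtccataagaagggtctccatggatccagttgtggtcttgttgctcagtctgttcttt
In the Cyp2c11 window the only motif found was TATAAA at -31. The motifs in Cyp2c12 and Cyp2c13 were chosen with both the ratios and the sequences known.

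Cyp2d genes were lower to a like degree. These enzymes are related to human CYP2D6 and oxidise many basic drugs, debrisoquine among them. All 3 measured members were at least 2-fold lower, with a median of -1.65. Cyp2d2 read 958 on the senecionine array and 2607 on the control array (3.61-fold lower), Cyp2d3 read 964 after senecionine and 2270.3 in control (3.12-fold lower), and Cyp2d5 read 8427 after senecionine and 19979 in control (3.14-fold lower). Their log2 ratios ran from -1.85 to -1.64. Cyp2d4, known as a main Cyp2d form of rat brain, had a flagged spot of 1439.9 intensity units after senecionine and 2327 in control, with a log2 ratio of -1.10 ± 0.20, which is given here outside the counts. The promoters of Cyp2d3 and Cyp2d5 were 83.7% identical, and those of Cyp2d1 and Cyp2d3 89.7%. Signals of single Cyp2d genes may include those of their neighbours, which promoter identity does not show and which could not be checked.

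Cyp2e1 was lower on every spot. This enzyme of pericentral hepatocytes oxidises ethanol and small solvents, and its 1 probe was spotted 10 times on each array. On the senecionine array 9 unflagged spots read between 5259 and 6072 (median 5699), and on the control array 8 unflagged spots read between 16871 and 21879 (median 20078). The spots of the arrays did not overlap, and their log2 SD was 0.06 for senecionine and 0.13 for control. Cyp2e1 was 4.52-fold lower (log2 ratio -2.18), and the ratios of single spot positions ran from -2.28 to -1.93, flagged spots included. These spots share 1 RNA pool in each group and are not replicates of the treatment.

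The single-gene subfamilies Cyp2f and Cyp2t were lower too. Cyp2f4, best known as a naphthalene-oxidising enzyme of the rodent airway, read 2308 after senecionine and 7143 in control and was 4.10-fold lower. Of 3 lung and airway markers, Scgb1a1 read 25.4 after senecionine and 51.2 in control, while the surfactant transcripts Sftpc and Sftpb passed the background test with senecionine alone (63.8 and 22.0 there, against 12.6 and 4.22 in control). Cyp2t1 read 396 after senecionine and 1156 in control and was 3.88-fold lower. Both genes lie next to each other at the end of the Cyp2a and Cyp2b cluster of chromosome 1, beyond Cyp2a2. At the other end of that cluster, Cyp2s1, an epithelial form inducible through the aryl hydrocarbon receptor, read 112 on the senecionine array and 55.5 on the control array and had a log2 ratio of 0.61 ± 0.23, within 2-fold.

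Cyp2j enzymes make epoxides of arachidonic acid. Cyp2j4 read 819.8 on the senecionine array and 2079.6 on the control array and was 3.36-fold lower. Cyp2j3 read 92.3 after senecionine and 184 in control on its unflagged probe (2.64-fold lower), and its brighter probe, flagged for non-uniformity on the control array, read 249 after senecionine and 1422 in control and gave a log2 ratio of -2.92. Both Cyp2j3 probes stood on the same side, but the size of the difference depended on the flagged spot, and the unflagged probe lay within 2-fold with normexp correction (-0.87) or without scaling (-0.99).

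**Figure D3:**
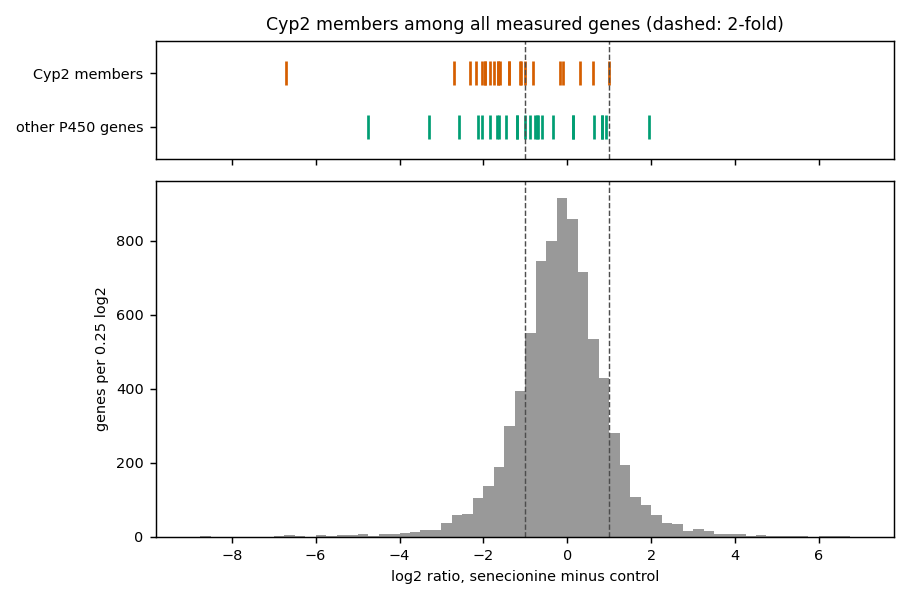
Log2 ratios (senecionine minus control) of the 23 measured Cyp2 members (orange ticks) and the 25 measured P450 genes of other families (green ticks) above a histogram of all 7803 measured genes, with dashed lines at 2-fold. Most Cyp2 ticks lie left of -1, in the lower flank of the histogram, and none lies right of 1.

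P450 genes outside family 2 were more often lower than higher. Of 37 that could be named, 25 were measured, with 12 lower by 2-fold or more and 1 higher to that degree. The lower share was 48%, beside 17.7% of all measured genes, and 18 of the 25 had ratios below 0. Their median log2 ratio was -0.89 beside -1.61 for Cyp2. The lowest was Cyp8b1, of bile acid synthesis (132 after senecionine, 2684 in control, log2 ratio -4.75), and the highest Cyp7b1, the oxysterol 7-alpha-hydroxylase (298 after senecionine, 57.9 in control, 1.96). In family 3, 3 of 4 were at least 2-fold lower, in family 4, 4 of 9, and in family 1 the single measured gene, Cyp1a2, was 3.61-fold lower. Cyp1a1, of the same family, passed the background test with senecionine alone (55.4 there, 8.96 in control). Its bound was at least 2.03-fold higher. Genes dim in control alone are left out of the counts above. With detection on at least 1 array, 12 were lower and 6 higher. Whether Cyp2 differs from the other families was not tested, since the genes of 1 array pair are not replicates.

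Partners that pass electrons to P450 enzymes did not share 1 pattern. Past 2-fold, 2 of the 5 measured were lower (40%, beside 17.7% of all measured genes) and 0 higher, and the median was -0.38. Por, the reductase that all Cyp2 enzymes use, read 574 after senecionine and 477 in control, and its log2 ratio (-0.14 ± 0.20) was smaller than the spot error. Cytochrome b5 (Cyb5a) read 1779 after senecionine and 6254 in control and was 4.66-fold lower, and its reductase Cyb5r3 was 2.76-fold lower. Cyb5b and the haem-binding Pgrmc2 had log2 ratios of -0.02 and -0.38.

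Haem genes were mostly within 2-fold, as were all measured genes. Past 2-fold, 2 of the 11 measured were lower (18.2%) and 1 higher, with a median of -0.61. These counts lie near the shares of all measured genes, 17.7% lower and 11.2% higher. The 2 lower ones make haem: Alas1, the rate-limiting synthase, read 5068 on the senecionine array and 9026 on the control array (2.36-fold lower), and Alad was 2.55-fold lower. Under quantile normalization or without scaling, neither passed 2-fold. Hmox1, which breaks haem down, read 13791 after senecionine and 410.3 in control and was 25.3-fold higher.

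Among regulators of liver P450 genes, 4 of 13 measured passed 2-fold downward and 1 upward (median -0.69). The lower share was 30.8%, beside 17.7% of all measured genes. The clock-controlled factor Dbp read 142 after senecionine and 1857 in control (17.3-fold lower), Cebpa 219 after senecionine and 545.7 in control (3.30-fold lower), the nuclear receptor Hnf4a 118 after senecionine and 230.3 in control (2.58-fold lower) and Nr1i2 807 after senecionine and 1558 in control (2.56-fold lower). The other probe of Hnf4a gave a log2 ratio of -1.59. Nr1i3, the receptor behind Cyp2b induction, had a ratio of -0.70 ± 0.22, and its other probe gave -1.25, so its probes lay on either side of 2-fold. Cebpb, which binds the same type of site as Cebpa, read 1111 after senecionine and 459.9 in control (1.82-fold higher, log2 ratio 0.87 ± 0.20). Onecut1 and Foxa2 lay within their spot errors at -0.19 and -0.20. Ppara, the fatty acid receptor, read 85.2 after senecionine and 25.4 in control and was 2.53-fold higher, but within 2-fold with normexp correction.

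Growth hormone signalling, on which the sex-biased Cyp2 genes depend, was uneven. Past 2-fold, 4 of the 8 measured genes were lower (50%, beside 17.7% of all measured genes) and 1 higher, and the median was -0.83. The receptor Ghr read 831 on the senecionine array and 2701 on the control array (4.31-fold lower), although its other probes gave log2 ratios from -1.53 to -0.58. The growth hormone target Igfals was 8.96-fold lower, Socs2 2.60-fold and Igf1 2.55-fold lower. The kinase Jak2 read 312 after senecionine and 66.9 in control and was 3.51-fold higher, Stat5b had a log2 ratio of 0.87 ± 0.26, and Bcl6, a male-biased repressor of female genes, one of 0.46 ± 0.20.

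**Figure D4:**
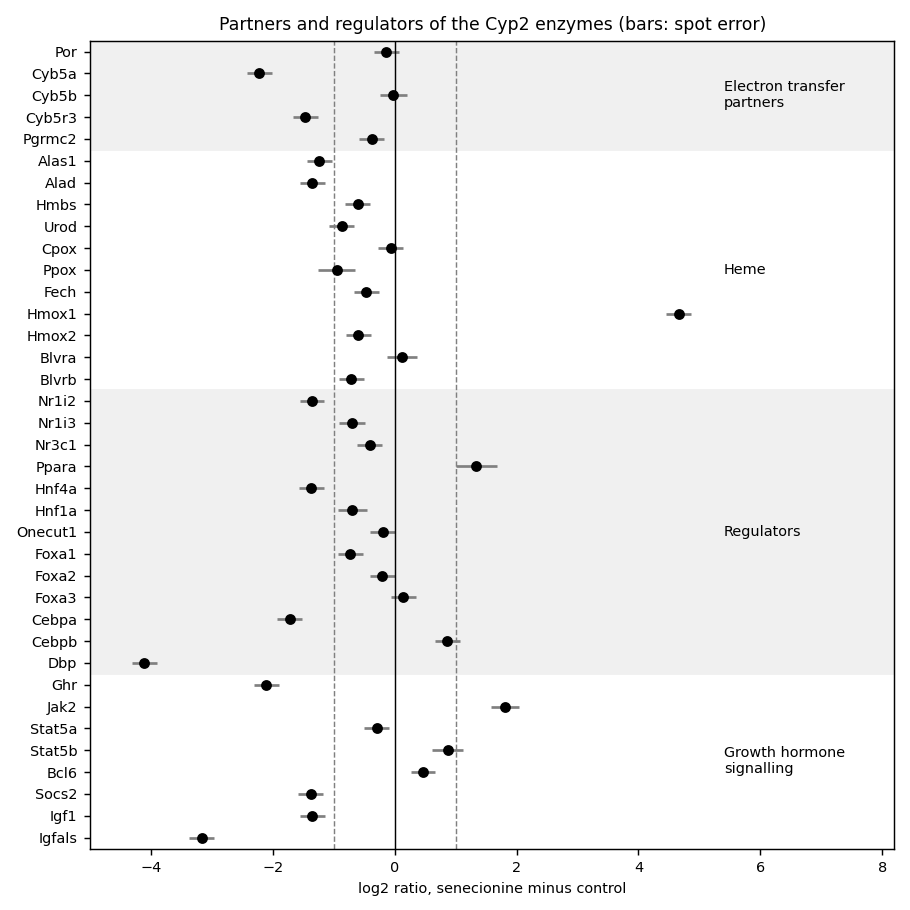
Log2 ratio (senecionine minus control) with spot error of each measured gene of 4 lists, namely electron transfer partners, haem synthesis and breakdown, regulators of P450 genes and growth hormone signalling, with dashed lines at 2-fold. Dbp at -4.11 is the lowest and Hmox1 at 4.66 the highest, and Por lies at -0.14.

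The authors' deposited table, a list of 7404 probes that differ by at least 2-fold in its values, holds 21 probes of 16 members. By the authors' deposited table, 20 of the 21 are lower after senecionine and 1, Cyp2c22, is higher, at a log2 difference of 1.20. Of all 7404 probes in it, 3401 are lower and 4003 higher. The authors' deposited table gives -6.20 for Cyp2c11 and between -2.22 and -1.20 for 3 Cyp2c7 probes. Cyp2b3 and Cyp2b21, each at least 2-fold lower in the values above, have no probe in the authors' deposited table.

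**Figure D5:**
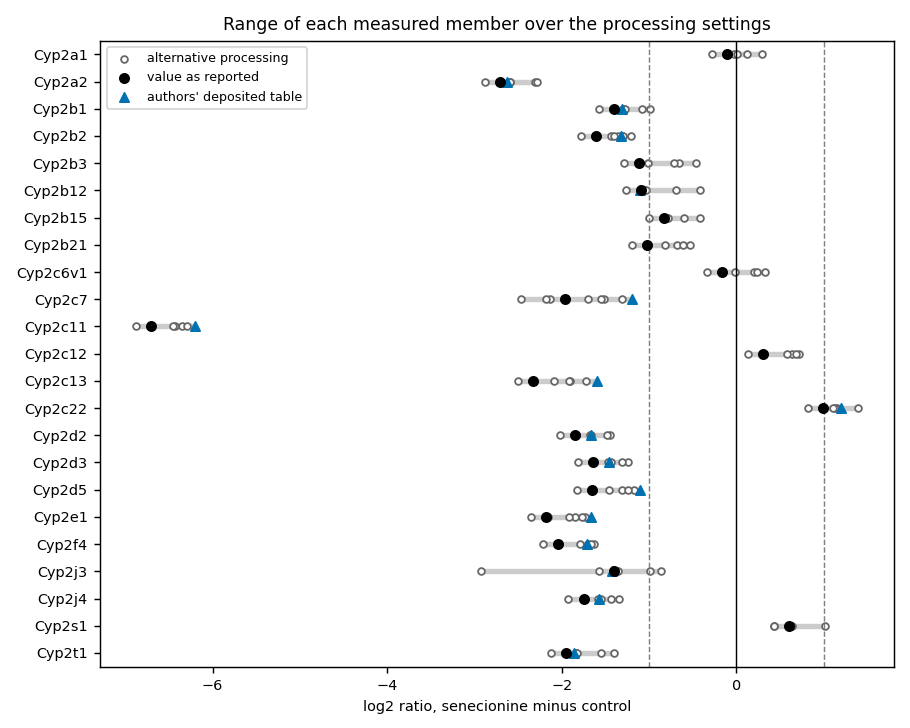
Log2 ratio (senecionine minus control) of the 23 measured members as reported (black), under the other processing settings (open circles) and in the authors' deposited table (triangles), with grey bars for the range and dashed lines at 2-fold. Cyp2a1 and Cyp2c6v1 lie on both sides of 0, and the flagged probe of Cyp2j3 gives its lowest point at -2.92.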

How the data were processed

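The deposited scanner files hold intensity values. Agilent Feature Extraction 10.7.3.1 is the software in the submitters' processing notes, and statistics of its background subtraction and spatial detrending stand in the file headers. The 75th percentile differed between the deposited arrays (134 for senecionine, 101 for control). The authors' deposited series table gives log2 values, of unknown scaling. Its direction was that of the scanner signals for all 7404 probes. The number of arrays limits the precision.

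Control spots and spots flagged as outliers (497 of 43379 for senecionine, 522 for control) were left out. Spots of 1 probe were averaged as log2 signal, and a probe was well above background when most of its spots were. Symbols came from RefSeq accessions (GRCr8, 17250 of 40516 probes). The array was designed on another build. Genes were counted at 2-fold. The members, the gene lists (all members were open to being named) and the motifs were chosen with earlier results of these data known. The counting was tried on simulated data with planted differences and spot error as the only noise. Such data hold no spread between animals or labellings, so they do not show how reliable the counts are. Alternatives were 4 scalings, normexp correction (offset 50, on spot medians), other filters, probe rules and thresholds, and the authors' values. Scripts ran in R 4.3.3 with limma 3.58.1 and in Python 3.11.15 with Biopython 1.88, pandas 2.3.3, numpy 2.4.6 and matplotlib 3.10.9.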

Additional observations from a re-analysis of the deposited data

Results flagged for a closer look

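Cyp2r1, a vitamin D 25-hydroxylase gene outside the 31 listed members, had signal in data that the comparisons do not use. It was picked out because its probe passed the background test after senecionine, at 27.1 intensity units, and failed it in control, at 14.4. No fold is given, because its bound came to under 1.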

How the results depend on the processing

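No paired analysis was possible because each group has 1 array and no test was made. For the same reason no array could be left out. The number of Cyp2 members at least 2-fold lower, 17, ranged from 12 without scaling to 18 with flagged spots kept, and was 5 at a 4-fold threshold. The number higher, 0, became 1 with quantile normalization, cyclic loess, normexp or the authors' table, and 2 without scaling or at a 1.5-fold threshold. The Cyp2 median became -1.31 with quantile normalization, -1.35 with cyclic loess, -1.20 without scaling, -1.31 with normexp, and -1.40 without a filter on dim probes, with the mean of probes or with the dimmest probe. The number of lower Cyp2b genes became 3 with quantile normalization, cyclic loess, normexp or the authors' table and 1 without scaling. The number of higher Cyp2c genes became 1 with quantile normalization, cyclic loess, no scaling, normexp or the authors' table.

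Among all measured genes, 787 were lower without scaling, 719 with normexp, 3000 without a filter, 2424 at 1.5-fold and 361 at 4-fold, and 1620 were higher without scaling, 2389 with detection on at least 1 array, 2394 without a filter, 1642 at 1.5-fold and 213 at 4-fold. Lower genes made up 61.2% of all past 2-fold as reported, 72.5% with median scaling, 32.7% without scaling and 39.5% with detection on at least 1 array. The median of all genes became 0.27 without scaling and 0.10 with detection on at least 1 array. It moved by -0.17 with median scaling, 0.10 with quantile normalization and 0.11 with normexp. The Cyp2 median minus the median of all genes ranged from -1.71 with detection on at least 1 array to -1.27 with quantile normalization, leaving out the authors' selected table.

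The number of lower haem genes became 4 with median scaling, 0 with quantile normalization or no scaling, and 1 with normexp or the authors' table. Lower regulators became 2 without scaling. Higher regulators became 2 without scaling, with detection on at least 1 array, without a filter or with the authors' table, and 0 with normexp. Without scaling, 2 growth hormone genes were lower and 2 higher. Higher P450 genes of other families became 2 with quantile normalization, cyclic loess or the authors' table, 5 without scaling, 3 with normexp, and 6 with detection on at least 1 array or without a filter. The cause of these changes was not tested. No member that was at least 2-fold lower changed sign under any alternative, although several alternatives could not change the value of a member with a single probe.

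Limits: each value rests on 1 array per pool, binding of 1 probe by near-identical Cyp2 transcripts could not be checked, dim probes on the control array are bounded by its higher detection limit, and spot error is the only error measured.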
